A study of Nematostella vectensis with 10 samples.

Results

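The genes described here are the marker genes of larval gland/secretory-cell types 1 and 2 of the sea anemone *Nematostella vectensis*. They are 4 of the 25729 gene models counted, NVE22589 and NVE12895 for type 1 and NVE11879 and NVE8163 for type 2. The study picked them from published single-cell profiles of *Nematostella* larvae, in which each type is a group of cells with a shared transcriptome, and it used types that it had already linked to apically enriched genes of these same libraries. That all 4 are higher in apical tissue is therefore no independent evidence about the 2 cell types. Separately, the study stained RNA of type 1 and type 2 marker genes in larvae (in situ hybridisation). It reported both types as enriched in the apical region. Only gene model identifiers come with the counts, and no annotation used here names the proteins, so the role of each product is not given.

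RNA was measured in planulae, the swimming ciliated larvae, that had been microdissected into an apical piece, which holds the apical organ, and the remaining larva, here named the body. Mid-planulae, aged 50 to 60 h after fertilisation, gave 2 libraries of each tissue, and late planulae, aged 75 to 85 h, gave 3 of each. Each sample pooled at least 50 larvae of at least 3 batches, and no allele or drug treatment is given for any of them. Whether the replicate pools shared larval batches is not given in the sources used here, so p-values measure the spread between these pools.

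Gland cells are secretory cells that package proteins or mucus into vesicles and release them at the surface of an epithelium. In cnidarians they occur in the outer ectoderm, where secretions include mucus and toxins, and in the lining of the gut, where they release the enzymes that break down prey, trypsin-like proteases among them. The apical pole of many ciliated larvae holds gland cells beside the sensory cells and the tuft of long cilia. The study placed gland/secretory-cell types 1, 2 and 3 in the outer ectoderm of the planula and type 4 in the pharynx and mesentery.

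The total counts per library were 14364093 to 27730410. Levels are counts per 1000000 after scaling with TMM (a trimmed mean of log ratios between libraries), written CPM below, and no gene lengths were used, so levels of different genes are not compared. All 4 markers passed the filter on low counts, as 4 of 21683 gene models. Their counts were 85 to 6804 per library, which gives a counting error of 10.8% at the lowest and 1.21% at the highest count if each count is 1 independent molecule. Other marker lists describe the pieces but cannot test the dissection. The study picked the tuft-cell and neuron genes below as apically enriched in these same libraries. It had likewise linked gland/secretory-cell type 4 to their body-enriched genes. The summed level of the 6 genes of the apical tuft cells was 737 to 1078 CPM in apical libraries and 37.1 to 51.7 CPM in body libraries, and that of the 3 genes of the larva-specific neurons around them was 1018 to 3248 CPM in apical and 86.5 to 168 CPM in body libraries. The 4 markers of gland/secretory-cell type 4 summed to 6.63 to 25.3 CPM in apical libraries and 1181 to 3370 CPM in body libraries. None of the type 4 markers was at 0 in an apical library, and 1 tuft-cell gene was at 0 in every late body library.

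The type 1 marker NVE22589 had 51.6 and 80.4 CPM in the mid-planula apical libraries, against 10.3 and 9.40 CPM in the mid-planula body libraries. In the late planula it had 139, 86.7 and 151 CPM in apical tissue, against 22.0, 15.1 and 16.8 CPM in the body. The 4 groups of stage and tissue did not overlap for this gene, with late apical tissue highest, then mid-planula apical tissue, then the late body, then the mid-planula body. Every late library was above every mid-planula library of its tissue, in both tissues, for 8.19% of all tested gene models. The second type 1 marker, NVE12895, had 24.8 and 33.7 CPM in mid-planula apical tissue, against 6.37 and 6.22 CPM in the body. Its late planula levels were 32.4, 27.0 and 30.3 CPM in apical tissue, against 10.2, 4.07 and 6.29 CPM in the body. For NVE12895 the tissues were apart at both stages, while the late and mid-planula libraries overlapped within each tissue.

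The type 2 marker NVE11879 had 236 and 264 CPM in mid-planula apical tissue, against 13.5 and 14.1 CPM in the body. In the late planula it had 237, 70.2 and 201 CPM in apical tissue, against 16.2, 5.94 and 7.66 CPM in the body. The late apical libraries differed most among themselves for this marker, by 3.37-fold between the highest and the lowest. The second type 2 marker, NVE8163, had 88.2 and 95.7 CPM in mid-planula apical tissue, against 18.8 and 23.4 CPM in the body. Its late planula levels were 92.3, 64.1 and 62.1 CPM in apical tissue, against 27.0, 14.0 and 22.4 CPM in the body. For both type 2 markers the tissues were apart and the stages overlapped.

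**Figure D1:**
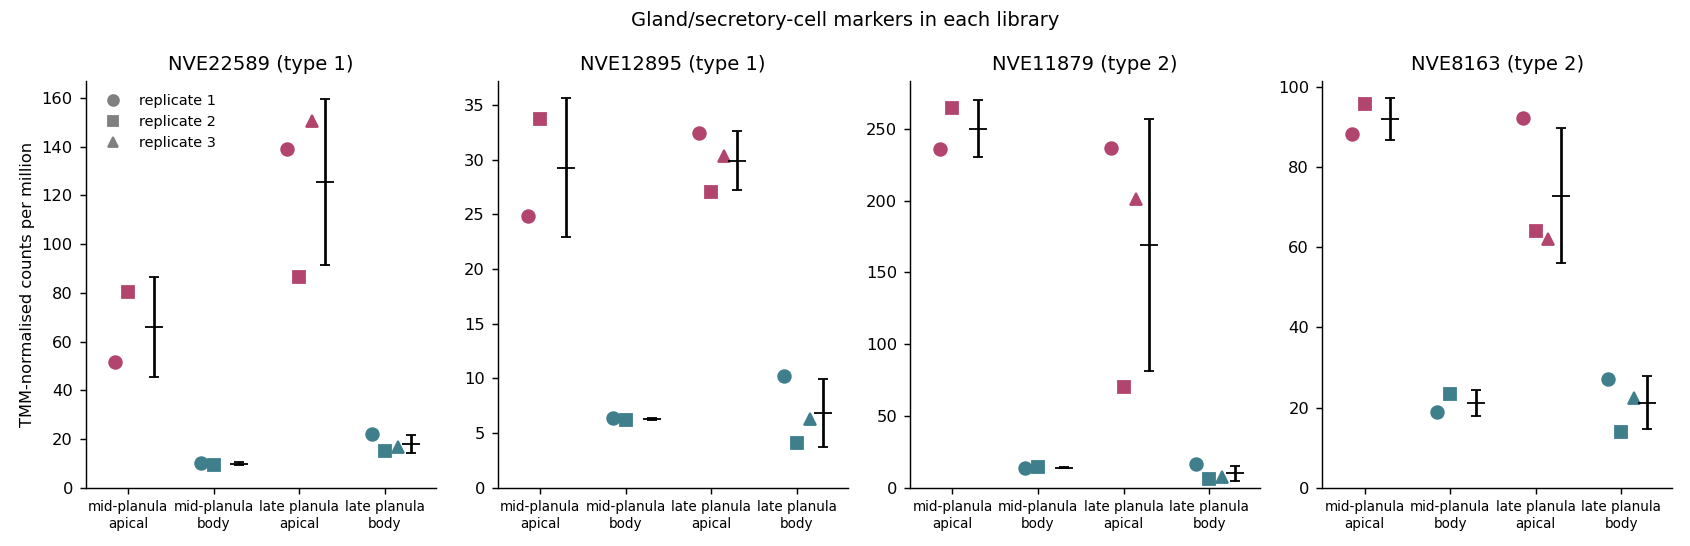
Level of each marker in each library, in TMM-normalised counts per 1000000 on a linear axis from 0, by stage and tissue. Points are libraries (circle, square and triangle for replicates 1, 2 and 3), and the black bar beside them is the mean with its SD (n = 2 in the mid-planula, n = 3 in the late planula). For all 4 genes every apical point lies above every body point.

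For all 4 markers every apical library was above every body library. This was so for 5.42% of all tested gene models. The lowest apical level was 2.34 times the highest body level for NVE22589, 2.43 times for NVE12895, 4.33 times for NVE11879 and 2.30 times for NVE8163. The markers remained measurable in the body in all 5 libraries, at different shares of the apical level. NVE11879 averaged 202 ± 76.8 CPM in apical libraries and 11.5 ± 4.43 CPM in body libraries (SD, n = 5 each), so that the body mean was 5.70% of the apical mean. The same share was 14.5% for NVE22589, 22.4% for NVE12895 and 26.3% for NVE8163. For the 6 single genes of the apical tuft cells it was 0.247% to 12.1%, and for the 3 of the larva-specific neurons 3.57% to 12.2%. NVE22589, NVE12895 and NVE8163 thus had larger body shares than each of these 9 genes, and NVE11879 did not. The study picked these 9 genes as apically enriched in these same libraries, a choice that favours low body shares. The apical neuropeptide gene NVE226 had a body share of 28.1%. NVE3755, listed beside it as an apical neuropeptide gene, had 19.8%, but its identifier differs from the one in the study's text. How much apical tissue on the body piece adds to these levels was not tested. In bulk tissue fewer cells of a type and less RNA per cell cannot be told apart.

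The tissue comparison asked how far each marker was higher at the apical pole, within each stage and over both. It used edgeR's quasi-likelihood test on all 21683 gene models with Benjamini-Hochberg adjustment, with a gene called at an adjusted p under 0.05. In the mid-planula all 4 markers were called as higher in apical tissue, as were 1.75% of all tested gene models. NVE22589 had a log2 fold change of 2.74 (SE 0.34, adjusted p = 0.000526), with a mean level of 66.0 ± 20.4 CPM in apical tissue against 9.84 ± 0.622 CPM in the body (SD, n = 2 each). NVE11879 had the largest difference of the 4, a log2 fold change of 4.18 (SE 0.58, adjusted p = 0.00105). The changes of NVE12895 and NVE8163 were 2.21 (SE 0.38, adjusted p = 0.00447) and 2.12 (SE 0.33, adjusted p = 0.00227). The call of NVE12895 was lost without either body library, with an adjusted p of 0.0511 without replicate 1 and 0.0529 without replicate 2, while its log2 fold change was 2.23 and 2.20.

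In the late planula all 4 were again called as higher in apical tissue, beside 4.61% of all tested gene models. NVE22589 had a log2 fold change of 2.80 (SE 0.28, adjusted p = 2.71e-05), with 125 ± 34.0 CPM in apical tissue against 18.0 ± 3.57 CPM in the body (SD, n = 3 each). NVE11879 had a log2 fold change of 4.10 (SE 0.47, adjusted p = 8.38e-05), at 169 ± 87.5 CPM in apical tissue against 9.94 ± 5.49 CPM in the body. NVE12895 and NVE8163 had log2 fold changes of 2.13 (SE 0.31, adjusted p = 0.000584) and 1.79 (SE 0.27, adjusted p = 0.000732). With both stages pooled, 5 apical against 5 body libraries, 4 of 4 were called as higher in apical tissue, beside 5.43% of all gene models tested. By pooled log2 fold change, NVE11879 ranked 29th from the highest of the 21683 gene models, NVE22589 96th, NVE12895 187th and NVE8163 255th. The pooled log2 fold changes were 2.79 and 2.16 for the type 1 markers and 4.13 and 1.93 for the type 2 markers. Type 2 thus held both the highest and the lowest of the 4. The medians, each a midpoint of 2 genes, were 2.48 over type 1, 3.03 over type 2 and 2.47 over the type 3 markers. Over all tested gene models the median was -0.04.

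**Figure D2:**
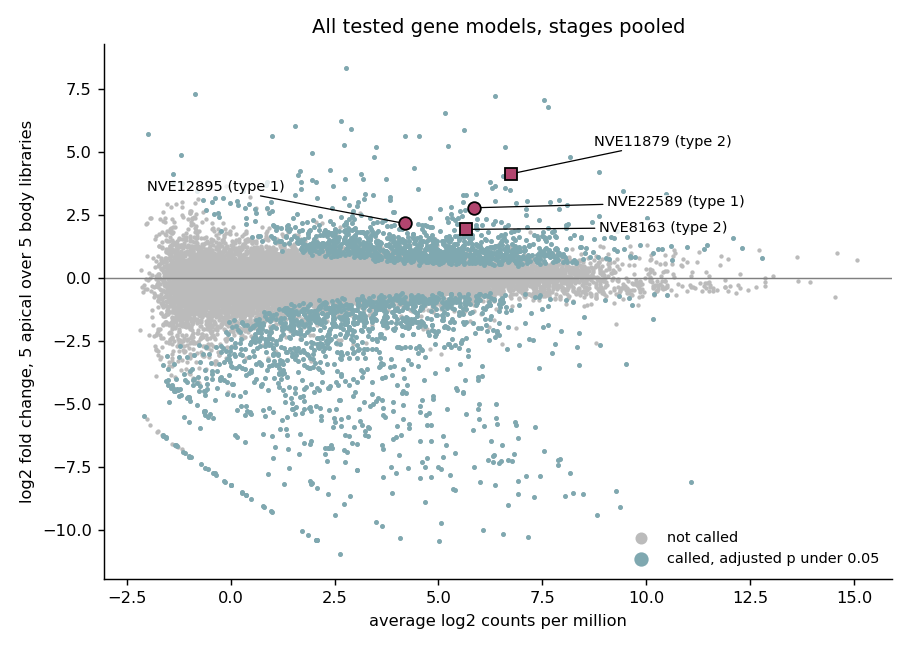
Log2 fold change (5 apical over 5 body libraries, y axis) against average log2 CPM (x axis) for the 21683 tested gene models, with called genes in blue-green and the 4 markers as large symbols (circles type 1, squares type 2). NVE11879 is the highest of the 4 at 4.13 and NVE8163 the lowest at 1.93.

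Gland/secretory-cell type 3 shares the outer ectoderm with types 1 and 2. By staining, the study reported this type throughout the animal and the other outer types as apically enriched. The type 3 markers NVE23674 and NVE23675 were nevertheless called as higher in apical tissue with the stages pooled. Their pooled log2 fold changes were 2.40 and 2.54, inside the span of the 4 markers. Their body means were 19.0% and 17.1% of their apical means. How these values relate to that staining was not tested. Each of the 4 markers was set against each type 3 marker by their log2 ratio within a library, which does not depend on the scaling of the library. The ratio of NVE11879 to NVE23674 was higher in apical than in body libraries by 1.63 on the log2 scale (exact permutation test over the 10 libraries, two-sided, p = 0.0238, adjusted p = 0.0952 over 8 ratios), and that of NVE11879 to NVE23675 by 1.48 (exact p = 0.0159, adjusted p = 0.0952). The other 6 ratios had adjusted p-values of 0.317 to 0.817. None of the 8 passed, so a difference between the apical enrichment of types 1 and 2 and that of type 3 was not shown by these genes. The type 4 markers lay on the other side, with pooled log2 fold changes of -9.11 to -5.29.

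**Figure D3:**
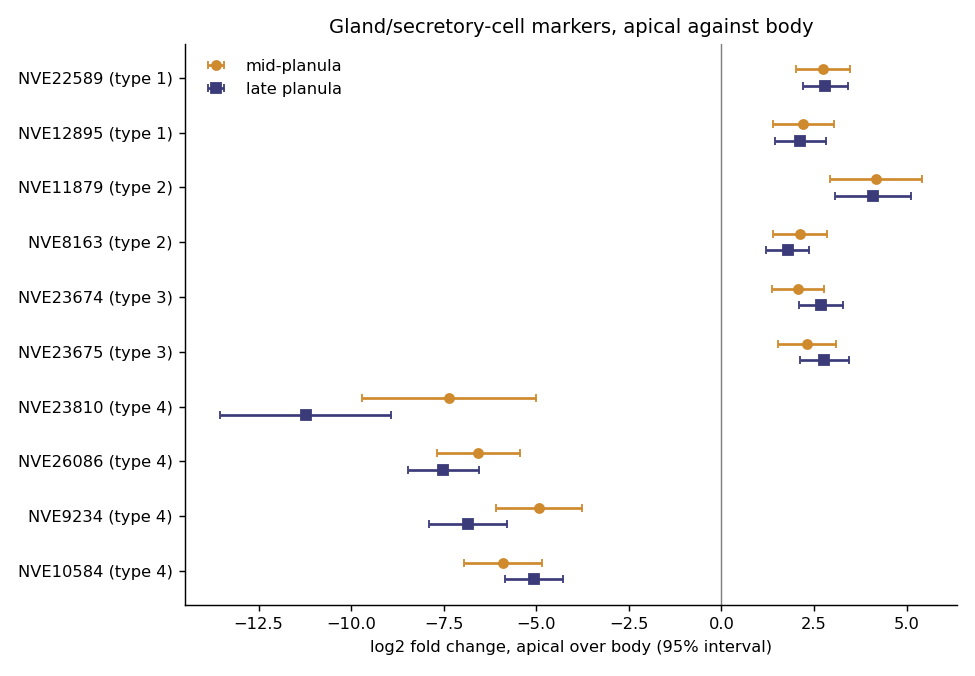
Log2 fold change of apical over body, with its 95% interval, for the markers of the 4 gland/secretory-cell types, with circles for the mid-planula and squares for the late planula. The intervals of types 1, 2 and 3 lie right of 0 at both stages and those of type 4 left of 0.

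The 4 markers did not share 1 size of tissue difference. The log2 ratio of NVE11879 to NVE8163, both type 2 markers, averaged 1.21 ± 0.62 in apical libraries and -0.94 ± 0.43 in body libraries (SD, n = 5 each). The counts of NVE11879 were 2.68 and 2.76 times those of NVE8163 in mid-planula apical libraries, against 0.719 and 0.602 times in mid-planula body libraries. In the late planula they were 2.56, 1.10 and 3.23 times in apical libraries, against 0.599, 0.425 and 0.343 times in body libraries. Every apical library was above every body library, and the ratio differed 4.44-fold between the tissues (exact permutation test, two-sided, p = 0.00794, the smallest that this test can give, adjusted p = 0.0238 over the 6 pairs of markers).

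The ratio of NVE11879 to the type 1 marker NVE12895 differed 3.71-fold between apical and body libraries (exact p = 0.00794, adjusted p = 0.0238). It was 9.52 and 7.83 in mid-planula apical libraries, against 2.13 and 2.27 in mid-planula body libraries. In the late planula it was 7.29, 2.60 and 6.63 in apical libraries, against 1.59, 1.46 and 1.22 in body libraries. The other 4 pairs did not pass. NVE11879 to NVE22589 differed by 1.34 on the log2 scale (exact p = 0.0556, adjusted p = 0.111), NVE22589 to NVE8163 by 0.81 (adjusted p = 0.131), NVE22589 to NVE12895 by 0.55 (adjusted p = 0.167) and NVE12895 to NVE8163 by 0.26 (adjusted p = 0.167). When libraries were permuted only within their stage, 5 of 6 pairs passed, all but NVE12895 to NVE8163. Both pairs that passed over all 10 libraries hold NVE11879, 1 of them within type 2 and 1 between the types.

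**Figure D4:**
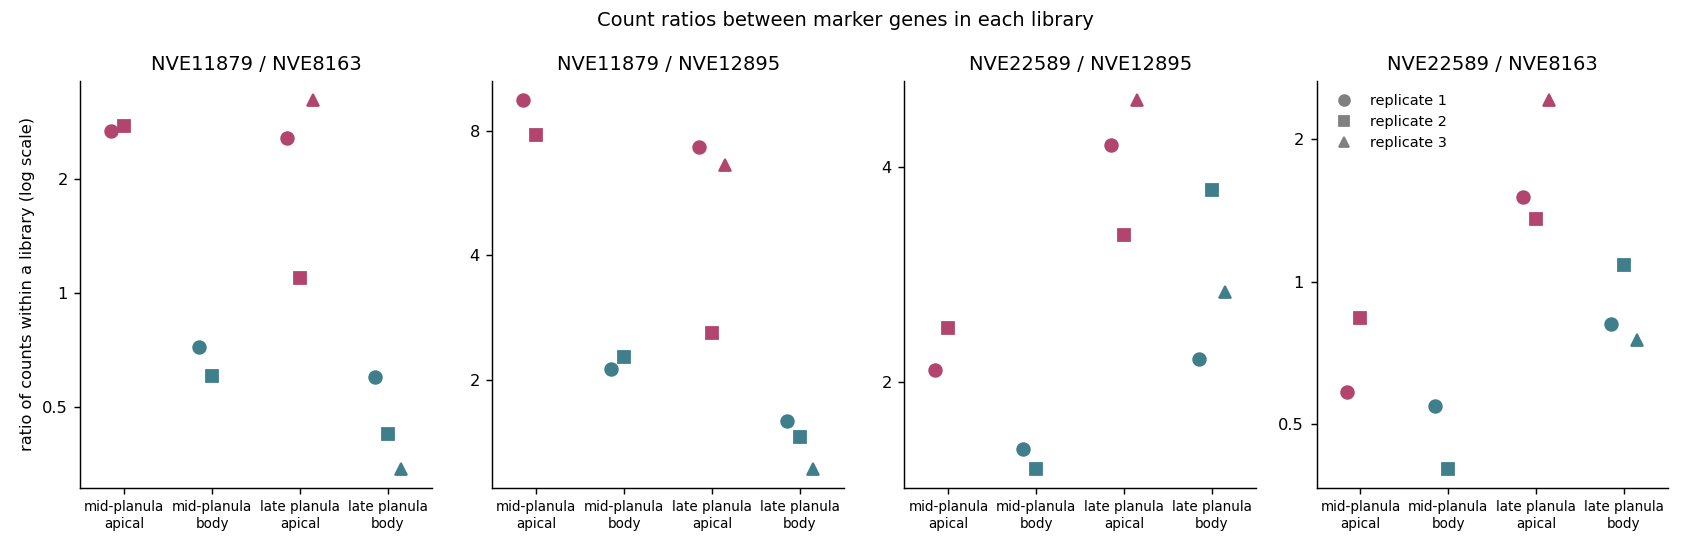
Ratio of the counts of one marker to another within each library, on a log axis, by stage and tissue (circle, square and triangle for replicates 1, 2 and 3). In the panels for NVE11879 to NVE8163 and NVE11879 to NVE12895 the apical points lie above all body points, and in the panels for NVE22589 the late planula points lie above the mid-planula points of the same tissue.

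The stage comparison asked whether a marker differed between late and mid-planulae within a tissue. In edgeR's test none of the 4 was called in either tissue, where 2.10% of all tested gene models were called in apical tissue and 2.64% in the body. At an unadjusted p under 0.05 there was 1 of 4 in each tissue, NVE22589 both times, beside 16.3% of all tested gene models in apical tissue and 17.4% in the body, so 1 of 4 is near the background. DESeq2 and limma-voom called 0 of 4 as well. NVE22589 averaged 125 ± 34.0 CPM in late and 66.0 ± 20.4 CPM in mid-planula apical tissue, 1.90 times as much, with a log2 fold change of 0.93 (95% interval 0.28 to 1.58, unadjusted p = 0.00865, adjusted p = 0.131). In the body it averaged 18.0 ± 3.57 CPM in late and 9.84 ± 0.622 CPM in mid-planulae, 1.83 times as much, with a log2 fold change of 0.87 (0.21 to 1.53, unadjusted p = 0.014, adjusted p = 0.155). Every late library was above every mid-planula library in each tissue, as for 16.6% of all tested gene models in apical tissue and 18.6% in the body. Scaled by library size alone, the difference of its mean log2 CPM was 0.55 in apical tissue and 0.51 in the body, where the median over all gene models was -0.33 and -0.37. NVE22589 then lay 0.88 above the median gene in each tissue, and with TMM it lay 0.89 above it in each.

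The other 3 markers had stage differences whose intervals included 0 in both tissues. For NVE12895 the log2 fold change of late over mid-planula was 0.03 (-0.68 to 0.75) in apical tissue and 0.11 (-0.63 to 0.85) in the body, and its sign was negative in both tissues when libraries were scaled by size alone. For NVE11879 it was -0.56 (-1.55 to 0.42) and -0.49 (-1.51 to 0.53), and for NVE8163 -0.34 (-0.96 to 0.29) in apical tissue and 0.00 (-0.64 to 0.63) in the body. These intervals leave room for changes of either sign. The interaction of tissue and stage, which asks whether the apical to body difference itself differed between the stages, was called for none of the 4 markers and for 0.0231% of all tested gene models. No marker had an unadjusted p under 0.05 for the interaction, and DESeq2 and limma-voom called 0 of 4. The interaction estimates were 0.06 for NVE22589 (-0.85 to 0.97), -0.08 for NVE12895 (-1.11 to 0.95), -0.08 for NVE11879 (-1.51 to 1.36) and -0.34 for NVE8163 (-1.23 to 0.56).

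Ratios of counts within a library were also compared between the stages. The counts of NVE22589 were 4.29, 3.21 and 4.97 times those of NVE12895, the other type 1 marker, in late apical libraries, against 2.08 and 2.38 times in mid-planula apical libraries. In the body the same ratio was 2.16, 3.72 and 2.67 in late and 1.61 and 1.51 in mid-planulae. The ratio of NVE22589 to NVE8163 was 1.51, 1.35 and 2.42 in late and 0.584 and 0.840 in mid-planula apical libraries, and 0.813, 1.08 and 0.752 in late and 0.546 and 0.402 in mid-planula body libraries. The ratio of NVE11879 to NVE22589 moved the other way, with 1.70, 0.810 and 1.33 in late against 4.58 and 3.29 in mid-planula apical libraries, and 0.737, 0.392 and 0.456 in late against 1.32 and 1.50 in mid-planula body libraries. In these 3 ratios the stages did not overlap in either tissue, and neither did they in the ratio of NVE11879 to NVE12895. The ratio of NVE11879 to NVE8163 overlapped in apical tissue only, and that of NVE12895 to NVE8163 in both tissues. How often the stages are apart in ratios of other genes was not tested.

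A test of these ratios was chosen after the values had been seen, so it describes them and is no independent support. Permuting the stage within each tissue (exact, two-sided, 100 assignments, smallest possible p = 0.01), the late minus mid-planula difference was -1.56 for NVE11879 to NVE22589 (adjusted p = 0.03 over 6 pairs), 1.08 for NVE22589 to NVE8163 (adjusted p = 0.03) and 0.85 for NVE22589 to NVE12895 (adjusted p = 0.04). The pairs without NVE22589 did not pass, with -0.71 for NVE11879 to NVE12895 (adjusted p = 0.06), -0.47 for NVE11879 to NVE8163 and 0.23 for NVE12895 to NVE8163 (adjusted p = 0.18 each). No pair passed without any 1 of the 4 mid-planula libraries, a setting that leaves 1 mid-planula library in a tissue and allows fewer assignments. The pair NVE22589 to NVE12895 also did not pass without any 1 of the 3 late apical libraries, with an adjusted p of 0.05. Permuted over both tissues together, 0 of 6 passed, with the 3 pairs at an adjusted p of 0.0571.

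Within groups the deviations of the markers had positive correlations in all 6 pairs. Taken as deviations of log2 CPM from the mean of the own stage and tissue, over the 10 libraries, the correlation was 0.82 between NVE12895 and NVE8163, 0.85 between NVE22589 and NVE11879, and 0.46 to 0.72 for the other 4 pairs. The correlations of the 4 markers with the 2 type 3 markers were -0.46 to 0.55, and those with the 4 type 4 markers -0.37 to 0.74. The highest of these, NVE11879 with the type 4 marker NVE9234 (0.74) and NVE8163 with NVE10584 (0.62), lay within the span of the pairs among the 4 markers. So did NVE22589 with the type 3 marker NVE23674 (0.55), NVE12895 with NVE10584 (0.49) and NVE8163 with NVE9234 (0.47). These values are descriptions over libraries that share their depth and scaling for all genes, with few libraries in each group. Late body replicate 1 was the highest of its group for all 4 markers and late body replicate 2 the lowest for all 4. Late apical replicate 2 was the lowest of its group for NVE22589, NVE12895 and NVE11879, with NVE11879 1.09 below its group mean on the log2 scale.

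Markers of other cell types also differed among these libraries. The neuropeptide gene NVE226 had 193 CPM in late body replicate 1, against 55.3 and 73.3 CPM in the other late body libraries. NVE3755, listed beside it, had 26.6, 35.5 and 25.5 CPM in late body replicates 1, 2 and 3, so replicate 1 was not its highest. The type 4 markers summed to 3370 CPM in late body replicate 1, against 1730 and 2815 CPM. The larva-specific neuron genes summed to 113 CPM in late body replicate 1, against 88.4 and 86.5 CPM. The summed tuft-cell genes were 40.3, 46.1 and 37.1 CPM in late body replicates 1, 2 and 3, so late body replicate 1 was not the highest for them. The summed type 3 markers were 20.4, 23.3 and 14.4 CPM in the same order, so replicate 1 was not their highest either. In late apical replicate 2 the larva-specific neuron genes summed to 1018 CPM, against 3248 and 1704 CPM in the other late apical libraries. There NVE226 had 145 CPM, against 502 and 423 CPM, and NVE3755 had 107 CPM, against 186 and 112 CPM. In the same library the type 3 markers summed to 112 CPM, against 135 and 138 CPM. The type 4 markers summed to 6.63 CPM there, against 7.65 and 9.75 CPM. The summed tuft-cell genes were 1078, 768 and 737 CPM in late apical replicates 1, 2 and 3, so replicate 2 was not the lowest for them. The part of these differences between libraries in the levels of the 4 markers was not tested. All 4 markers stayed called as higher in apical tissue, in the late planula and with the stages pooled, without late body replicate 1 or without late apical replicate 2.

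**Figure D5:**
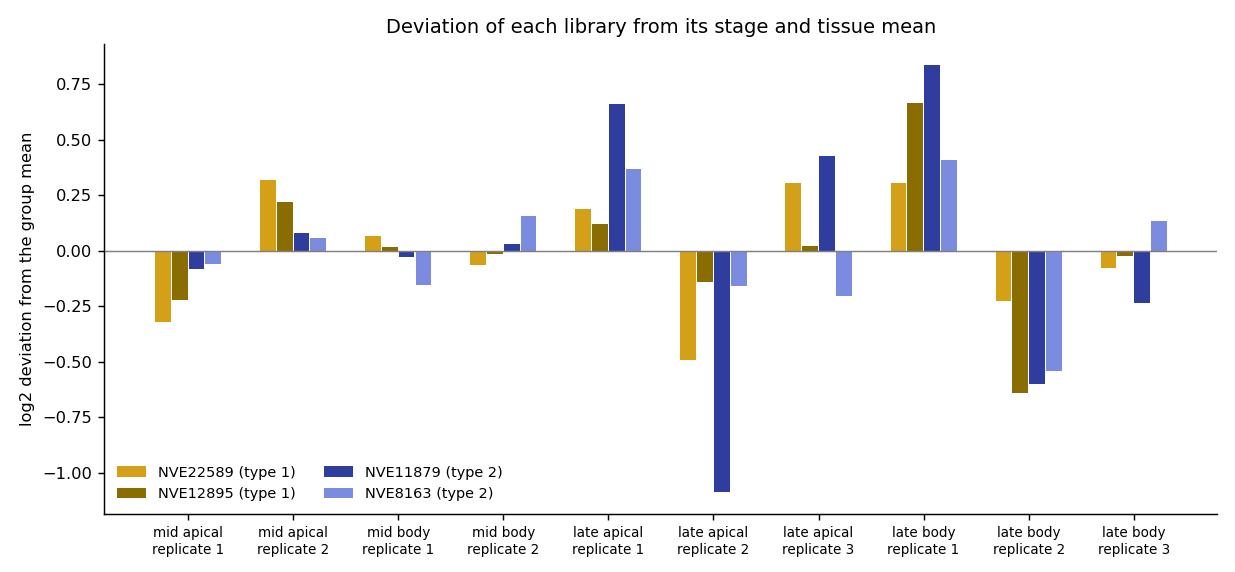
Deviation of the log2 level of each marker from the mean of its own stage and tissue, for each of the 10 libraries (x axis). Bars of late body replicate 1 are above 0 for all 4 genes, those of late body replicate 2 are below 0 for all 4, and the longest bar is NVE11879 in late apical replicate 2 at -1.09.

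Among 16000 other gene models whose average log2 CPM was 1 or more, likeness to a marker was measured by Pearson's r of log2 CPM over the 10 libraries, 5 of each tissue, so a tissue difference shared by both genes enters it. The 3 gene models most like NVE22589 were NVE7516 (r = 0.992), NVE22709 and NVE14608. NVE7516 averaged 109 CPM in apical and 10.8 CPM in body libraries. For NVE12895 they were NVE572 (r = 0.993), NVE6135 and NVE236, and the deviations of NVE572 from its group means had an r of 0.985 with those of NVE12895. For NVE11879 they were NVE19157 (r = 0.986), NVE4712 and NVE11770, of which NVE4712 is 1 of the 3 genes of the larva-specific neurons. For NVE8163 they were NVE572, NVE23855 (r = 0.982) and NVE634. All of these gene models were called as higher in apical tissue in the pooled comparison, beside 5.43% of all tested gene models. Their choice by likeness to markers that separate the tissues favours such a call, so it is no separate result.

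By the same measure the nearest of the 4 markers was not always the one of the same type. NVE572 headed the list of both NVE12895, a type 1 marker, and NVE8163, a type 2 marker. NVE12895 was the 4th most similar gene model to NVE8163 (r = 0.98), and NVE11879, the other type 2 marker, the 8th (r = 0.97). NVE22589 stood further from the rest, with NVE12895 at rank 158 (r = 0.94), NVE11879 at rank 483 and NVE8163 at rank 485 (r = 0.89 each) of its 16000 gene models. The ranks are descriptions over 10 libraries, and no test of their differences was made.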

How the data were processed

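Paired-end reads were made from mRNA of 10 pooled samples. Following the paper and the submitters' processing notes, the authors trimmed reads (Trimmomatic 0.36), mapped them with STAR and counted them per gene model with HTSeq 0.6, and deposited raw counts without normalisation. Strand and multiple-mapping settings are not given in the sources used here, so overlapping or near-identical gene models are uncertain. Of the counts from 1 to 20, 70.3% to 83.8% per library were even. If both mates were counted, counting errors are larger than stated.

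Counts were tested with edgeR 4.0.16 (R 4.3.3, limma 3.58.1): TMM, filterByExpr (minimum count 10, total 15), a quasi-likelihood fit of 4 groups of stage and tissue, a separate fit of pooled stages, and Benjamini-Hochberg adjustment over 21683 gene models. SEs were derived from the F statistic. The log2 ratios used counts with a prior count of 2 and exact permutation tests, and ratios given per library are of plain counts. Replicates were distinct libraries (chi-square per degree of freedom 33.3 to 116). The scripts were tested on simulated data. The named genes are the 4 markers and the study's other gland, tuft-cell and larval-neuron marker lists. Also named are the neuropeptide gene NVE226, NVE3755 listed beside it, and the 3 most similar gene models per marker. The identifier of NVE3755 differs from the one in the study's text, so what it encodes is uncertain here. Which values of NVE226 and NVE3755 are given was chosen after they had been seen. Members and lists were chosen with earlier results of these data known. DESeq2 1.42.0, limma-voom and other alternatives are given in the closing section. No gene coordinates or sequences were used here.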

Additional observations from a re-analysis of the deposited data

How the results depend on the processing

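All 4 markers kept their apical call in the late planula and with the stages pooled under all alternatives run (DESeq2 size factors, upper-quartile or library-size scaling, the DESeq2 Wald test, limma-voom, other filters, halved counts, fits of 1 stage alone, the replicate block, each library left out). Library-size scaling and the test of stage ratios were added after the values had been seen. With the replicate block the counts of called markers did not change. Over genes, deviations of same-numbered libraries correlated at 0.206 in the mid-planula and at 0.315, 0.645 and -0.135 in the late planula, so the numbers were not taken as pairs. For ratios between markers, apical minus body, 5 pairs passed when permuted within stage and 0 with the replicate block, which cannot reach the threshold. Between stages 3 pairs passed, 0 when permuted over both tissues, and 0 to 3 with 1 library left out.

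Signs turned only in values that were not called. NVE8163 in the body, late over mid-planula, was 0.0346 with DESeq2 size factors, 0.0264 with upper-quartile scaling, 0.0346 with the DESeq2 Wald test, 0.0157 with at least 10 counts in every library, 0.0114 with halved counts and -0.21 to 0.23 with 1 library left out. NVE12895 between stages was -0.33 (apical) and -0.27 (body) with library size only and -0.0321 (body) with limma-voom, and -0.17 to 0.27 (apical) and -0.28 to 0.38 (body) with 1 library left out. Its interaction was 0.0905 with limma-voom, 0.0175 with the replicate block and -0.35 to 0.31 with 1 library left out. Over the same omissions the interaction was -0.22 to 0.42 for NVE22589 and -0.40 to 0.45 for NVE11879, and the log2 ratio of NVE22589, apical minus body, was -0.0135 to 0.51 to NVE23674 and -0.14 to 0.43 to NVE23675. Depth limits NVE12895 most, with 85 counts in 1 late body library.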
